A study of Mus musculus with 2 samples.

Results

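CD8_T_2 is a cluster of CD8 T cells, the killer lymphocytes of the immune system, found in mouse tumours and treated here as the less cycling of a pair of CD8 clusters. Its members are the cells that the authors' cell annotation names CD8_T_2. They were 223 of 11247 annotated cells, with 127 of 5482 in the antibody library and 96 of 5765 in the IgG library. The tumours were percutaneous grafts of Hep1-6, a mouse hepatoma line, in wild-type C57BL/6 male mice of 6 to 8 weeks on a normal diet under specific pathogen free conditions. One group of mice received SIGLEC15 antibody and the other IgG, each by intraperitoneal injection. SIGLEC15 is a receptor that binds sialic acid and is studied as a brake on T cells in tumours. The series design gives 3 mice per group, but each group has 1 library, so mice cannot be told apart and no difference has a replicate check. Cells enriched with CD45 magnetic beads and unsorted cells were loaded in equal parts, so the share of immune cells among all cells was set partly by the loading.

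CD8 T cells recognise peptides on MHC class I through the T cell receptor and its CD8 coreceptor, and kill by releasing perforin and granzymes. After activation they divide, and in tumours that persist many come to carry inhibitory receptors such as PD-1, LAG3 and TIM-3. Chemokines and chemokine receptors guide them and other leukocytes, and receptors shared with natural killer (NK) cells adjust their threshold for killing.

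The files held every measured gene for the antibody library, and 105 complete genes for the IgG library in the copy used here. Values from all genes are therefore from the antibody library, and Siglec15 itself was not analysed here. The 127 antibody cells held 391987 unique molecular identifiers (UMIs, counted transcripts), with 1132 in the shallowest cell, a median of 2591 and 15106 in the deepest. The 96 IgG cells held 321946 UMIs, with a median of 2854. In the antibody library the median depth was 5474.5 UMIs in CD8_T_1, 2808 in CD4_T, 1367 in CD3_T and 20428 in tumour cells. Of the cell barcodes, 11 occurred in both libraries, and 0 of these were in CD8_T_2. Levels below are CPM, which is a gene's UMIs summed over a cluster and scaled to the cluster's total. Intervals given with a value are at the 95% level and hold the error of counting UMIs or cells, not the spread between mice. Intervals of levels and of their ratios count each UMI as separate, so they leave out the spread between cells as well. They are too narrow for a gene whose UMIs lie mostly in a few cells.

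The deposited name was checked against markers of T cells and of other cell types. All 127 cells had a UMI of a T cell receptor complex marker (Cd3d, Cd3e, Cd3g, Trac, Trbc2, Cd247), and 116 had a UMI of Cd8a or Cd8b1, the chains of the CD8 coreceptor. With each cell thinned to 1000 UMIs, the share with Cd8a or Cd8b1 was 68.8% (59.7 to 76.5) in CD8_T_2 and 0.112% in tumour cells, which lack these genes, at median depths of 2591 and 20428 UMIs before thinning. Cd4 had a UMI in 4 cells, and Cd40lg was at 0. Trdc, the delta chain constant gene of gamma delta T cells, was at 0, and Tcrg-C2, a gamma chain constant gene, had 30 UMIs in 20 cells. Of 9 NK markers, Ncr1, Klra4 and Klra8 were at 0, and the list as a whole had 153 UMIs in 62 cells, at 390 CPM in CD8_T_2 and 384 CPM in CD8_T_1. Of 10 macrophage markers, Adgre1, Mrc1 and Ms4a7 were at 0, and the list had 198 UMIs in 87 cells, at 505 CPM in CD8_T_2 and 478 CPM in CD8_T_1. The B cell markers Cd79a, Cd79b, Ms4a1 and Pax5 were at 0, and the B cell list had 44 UMIs in 32 cells, at 112 CPM in CD8_T_2 and 167 CPM in CD8_T_1. Of 6 endothelial markers 5 were at 0, and of 5 erythroid markers 5. Genes of the tumour's hepatocyte type were seen in 119 cells at 952 CPM in sum in CD8_T_2 and at 913 CPM in CD8_T_1. Monocyte markers were seen in 97 cells and summed to 911 CPM in CD8_T_2 and 592 CPM in CD8_T_1. Of 6 monocyte markers, 3 were compared with CD8_T_1 and 2 were higher. Among them Ly6c2 had 130 UMIs in 47 CD8_T_2 cells, while Chil3 and Vcan were at 0. Dendritic cell markers were seen in 47 cells and summed to 367 CPM in CD8_T_2 and 535 CPM in CD8_T_1, with Flt3, Xcr1, Cd209a and Siglech at 0 in CD8_T_2. Neutrophil markers summed to 1520 CPM in CD8_T_2 and 634 CPM in CD8_T_1, and came from 14 of the 127 cells.

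The 5 marker genes given for the cluster were high in it, but not each of them was highest there. Cd8b1 was at 679 CPM and Klrd1, which encodes the CD94 receptor shared with NK cells, at 487 CPM, and for each of these CD8_T_2 ranked the highest of 30 clusters. Ccl5, a chemokine that attracts T cells and monocytes, was at 4470 CPM in CD8_T_2 and 8870 CPM in CD3_T, the highest cluster. Ms4a4b, a T cell membrane protein, was at 798 CPM in CD8_T_2 and 1140 CPM in CD3_T. Cd3d, a chain of the receptor complex, was at 1000 CPM in CD8_T_2 and 1080 CPM in CD4_T. CD8_T_2 also had the highest level of Cd8a, Prf1, Cxcr6, Lag3, Pdcd1 and Havcr2 of the 30 clusters. For Pdcd1 the order was not separated, at 253 CPM (205 to 307) in CD8_T_2 and 239 CPM (215 to 265) in CD8_T_1. For Prf1 it was not separated either, at 401 CPM in CD8_T_2 and 389 CPM in CD3_T. The intervals also overlapped for Havcr2, at 112 CPM (81.6 to 151) in CD8_T_2 and 81.8 CPM (43.6 to 140) in MDSC_4, for Cxcr6, at 316 CPM (263 to 377) in CD8_T_2 and 229 CPM (161 to 315) in CD4_T, and for Lag3, at 286 CPM (235 to 344) in CD8_T_2 and 185 CPM (125 to 265) in CD4_T.

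**Figure D1:**
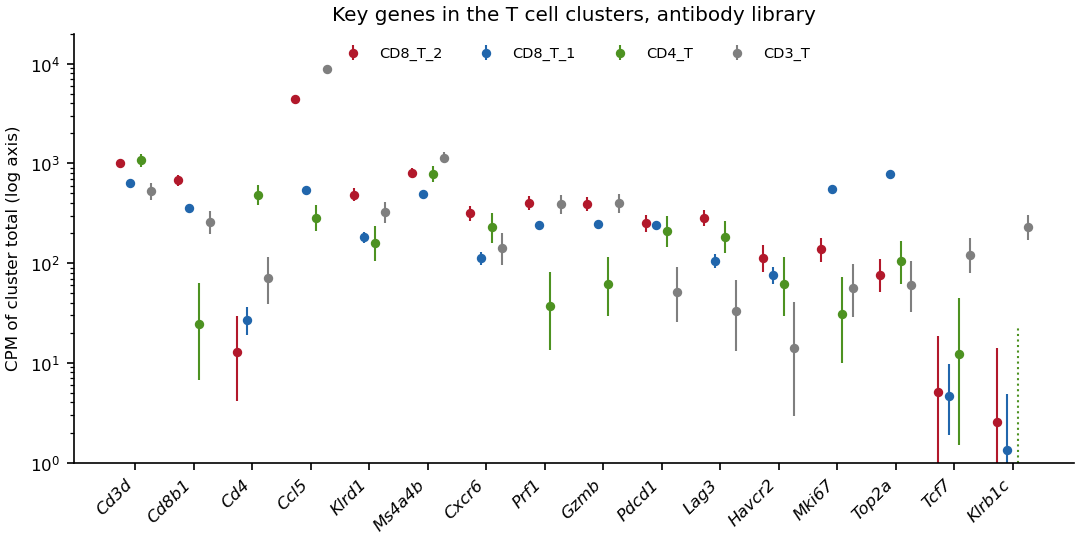
Level in CPM (log axis) of 16 genes in the antibody library, with 1 point per T cell cluster in the order CD8_T_2, CD8_T_1, CD4_T, CD3_T, and 95% counting intervals as bars; a dotted line is a gene with 0 UMIs, drawn up to its upper bound. Cd8b1 stood at 679 CPM in CD8_T_2 and 24.7 CPM in CD4_T, Lag3 at 286 CPM in CD8_T_2 and 32.8 CPM in CD3_T, and Top2a at 76.5 CPM in CD8_T_2 and 775 CPM in CD8_T_1.

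CD8_T_2 was set against the other CD8 cluster, CD8_T_1, against CD4_T and CD3_T, and against all other immune clusters together. The authors made the clusters from expression of these cells, so the ratios below describe the clusters and test nothing. All 4 comparisons use the same 127 CD8_T_2 cells. A gene was compared where the mean of its CPM in the groups was at least 50 and both together held at least 20 UMIs, and was counted as higher or lower from a ratio of 2 or of 0.5.

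Against CD8_T_1 the widest gap was in cell division genes, which were lower in CD8_T_2, while Ccl5, Klrd1, Lag3 and Cxcr6 were higher. These levels are relative to each cluster's total, and CD8_T_1 cells were deeper. Without thinning, Klrd1 was read in 59.8% of CD8_T_2 and 55.8% of CD8_T_1 cells, and Lag3 in 54.3% and 47.6%. At 1000 UMIs the shares were 35.4% and 17.1% for Klrd1, and 25.5% and 12.0% for Lag3. Of 2594 genes compared, 54 were higher (2.08%) and 156 lower (6.01%), with a median log2 ratio of -0.07. Of the 26 genes on a mitosis list, 21 were compared, and 19 of these were lower and 0 higher, with a median log2 ratio of -2.56. Top2a, the topoisomerase that untangles replicated DNA, was at 76.5 CPM in CD8_T_2 and 775 CPM in CD8_T_1, a ratio of 0.0987 (0.0663 to 0.142). Cdk1, the kinase that drives entry into mitosis, was at 12.8 CPM in CD8_T_2 and 199 CPM in CD8_T_1, a ratio of 0.0640 (0.0206 to 0.151). Mki67, which encodes the proliferation antigen Ki-67, was at 138 CPM in CD8_T_2 and 559 CPM in CD8_T_1, a ratio of 0.246 (0.183 to 0.324). The 2 compared genes of the list that did not reach the limit were Ccnb2, at a ratio of 0.540, and Cenpa, at 0.509.

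Histone genes made in S phase were among those with the lowest ratios. Hist1h2ab had 0 UMIs in CD8_T_2 and 258 CPM in CD8_T_1, at least 33.7-fold lower when the CD8_T_2 cells together are given a floor of 3 counts. Hist1h1b, a linker histone, was at 130 CPM in CD8_T_2 and 1880 CPM in CD8_T_1, a ratio of 0.0692 (0.0514 to 0.0912). Hist1h2ap was at 35.7 CPM in CD8_T_2 and 1110 CPM in CD8_T_1, a ratio of 0.0320. Of 14 histone and chromatin genes of cycling cells, all of which were compared, 12 were lower and 0 higher, and H2afz (0.562) and Hmgn2 (0.603) did not reach the limit. Histone genes are near-identical copies of each other, so their separate values depend on how reads were assigned. DNA replication genes were closer together. Of 22, 15 were compared and 5 of these were lower, among them Rrm2 (0.196) and Tyms (0.206), which make DNA building blocks, and Mcm7 (0.457), a subunit of the replicative helicase. Mcm6, another helicase subunit, was at 194 CPM in CD8_T_2 and 188 CPM in CD8_T_1, a ratio of 1.03 (0.790 to 1.33).

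**Figure D2:**
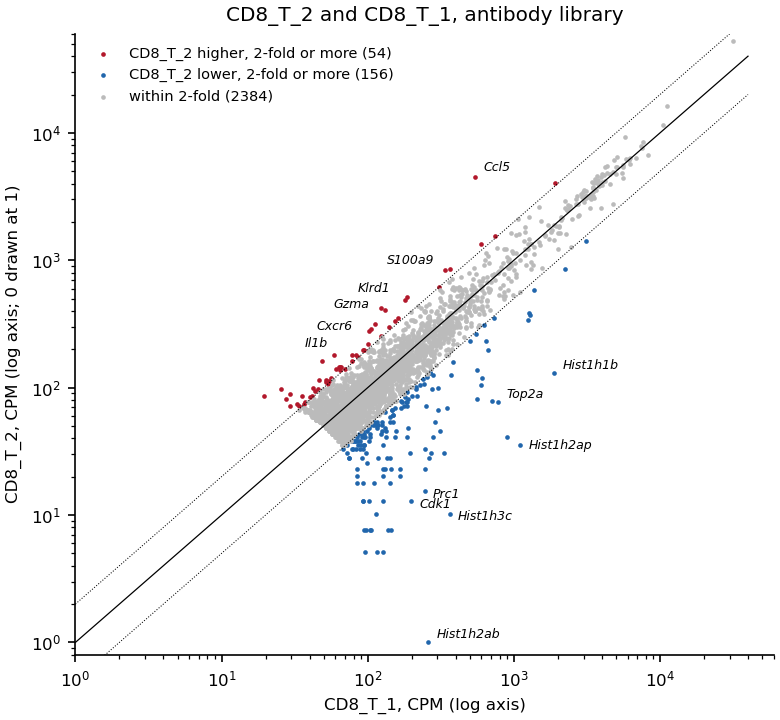
Level of each of 2594 compared genes in CD8_T_2 (vertical axis) against CD8_T_1 (horizontal axis) in the antibody library, in CPM on log axes, with values of 0 drawn at 1; red points are the 54 genes higher and blue points the 156 genes lower past 2-fold. The histone genes, Top2a, Prc1 and Cdk1 lie farthest below the diagonal, and Ccl5 lies above it at 4470 CPM in CD8_T_2 and 541 CPM in CD8_T_1.

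The mitosis list differed between the CD8 clusters across their cells, with an overlap. Mitosis genes made up a median of 6.75 per 10000 UMIs of a CD8_T_2 cell (0 to 85.1), and 25 of 127 cells had none. In CD8_T_1 the median was 57.1 (5.48 to 228), and 0 of 208 cells had none. Of the CD8_T_2 cells, 12 lay above the lower quartile of CD8_T_1 and 4 above its median. The median was 3.68 in CD4_T and 0 in CD3_T, so on this list CD8_T_2 was not the lowest T cell cluster. Top2a ran the other way against CD4_T, at 76.5 CPM (51.6 to 109) in CD8_T_2 and 105 CPM (61.2 to 168) in CD4_T, with intervals that overlap. The depth of the clusters differs in the same direction as part of this order, so shares were also taken at 1000 UMIs per cell. At that depth 53.4% (44.5 to 62.4) of CD8_T_2 cells had a mitosis gene, against 97.0% of CD8_T_1, 35.0% of CD4_T and 35.1% of CD3_T. The same share was 48.4% in tumour cells, 46.0% (36.0 to 55.7) in MDSC_1, where 140 of 245 cells were too shallow to enter, and 34.7% (27.9 to 42.3) in Macrophage_1, so a UMI of this list alone does not mark a cycling cell, and the CD8_T_2 share overlaps that of MDSC_1 within the intervals. Mki67 was seen in 12.1% (6.76 to 18.7) of CD8_T_2 cells, 45.1% of CD8_T_1 cells and 10.0% of tumour cells, a type that also divides. Any DNA replication gene was seen in 69.1% of CD8_T_2 cells at this depth, against 91.2% in CD8_T_1, 34.9% in CD4_T and 51.7% in CD3_T.

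**Figure D3:**
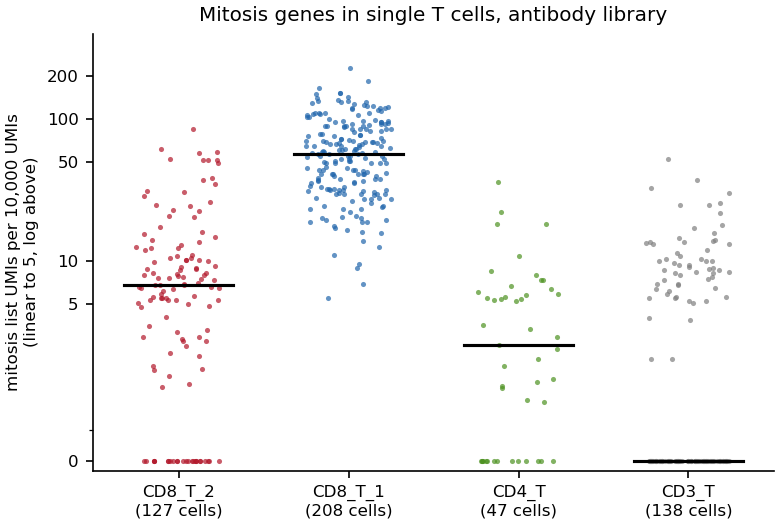
Mitosis list UMIs per 10000 UMIs in each cell (1 point per cell; axis linear up to 5 and logarithmic above) for CD8_T_2, CD8_T_1, CD4_T and CD3_T in the antibody library; the black line is the median. CD8_T_2 has its median at 6.75 and 25 of 127 cells at 0, whereas CD8_T_1 has its median at 57.1 and no cell at 0.

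To show the sequence in front of genes that differed between the CD8 clusters, the 150 bases before the gene start were taken from RefSeq on GRCm38.p6 for Cdk1 and Top2a, which were lower, and for Cxcr6 and Gzma, which were higher. Each is written 5′ to 3′ on the gene's own strand. Capitals mark matches on either strand to CCAAT (NF-Y word; ATTGG on the other strand), TTTGAA (the cell cycle homology region, CHR; TTCAAA on the other strand) or TGTGGT (RUNX word; ACCACA on the other strand). Cdk1 lies at chr10:69352913-69353062 on the minus strand, Top2a at chr11:99024190-99024339 on the minus strand, Cxcr6 at chr9:123806327-123806476 on the plus strand and Gzma at chr13:113100982-113101131 on the minus strand.
Cdk1: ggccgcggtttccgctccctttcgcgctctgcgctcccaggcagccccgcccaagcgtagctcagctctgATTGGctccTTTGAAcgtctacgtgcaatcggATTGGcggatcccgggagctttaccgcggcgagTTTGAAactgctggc
Top2a: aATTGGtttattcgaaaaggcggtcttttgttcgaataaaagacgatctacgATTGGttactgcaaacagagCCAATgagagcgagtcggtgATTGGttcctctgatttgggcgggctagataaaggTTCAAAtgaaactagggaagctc
Cxcr6: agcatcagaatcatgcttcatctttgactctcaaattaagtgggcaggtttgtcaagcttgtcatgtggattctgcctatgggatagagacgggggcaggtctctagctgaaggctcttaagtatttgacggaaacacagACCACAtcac
Gzma: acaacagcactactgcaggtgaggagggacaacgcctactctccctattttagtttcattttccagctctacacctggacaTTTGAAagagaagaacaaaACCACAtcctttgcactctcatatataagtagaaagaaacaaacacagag

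The Top2a window held 4 CCAAT matches and 1 TTTGAA match, and the Cdk1 window held 2 of each. The Cxcr6 window held 1 TGTGGT match, and the Gzma window held 1 TGTGGT match and 1 TTTGAA match. CCAAT was present in 62 of 128 promoters (48.4%) of the genes lower in CD8_T_2, of which 111 of 156 had a promoter in the table. It was present in 13 of 56 promoters (23.2%) of the genes higher in CD8_T_2, of which 43 of 54 had one. The share was 28.3% over 2583 promoters of the compared genes and 24.5% over all 32851 promoters. TTTGAA was present in 21 promoters (16.4%) of lower genes, 5 (8.93%) of higher genes, 5.85% of those of compared genes and 9.07% of all. TGTGGT was present in 6 promoters (4.69%) of lower genes, 7 (12.5%) of higher genes, 6.62% for compared genes and 8.40% of all promoters. Shares that rest on so few promoters are loosely set. A match describes letters in this window and is not a measured binding site.

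Among genes for secreted signals, Ccl5 had the largest separation from CD8_T_1, at 4470 CPM in CD8_T_2 and 541 CPM in CD8_T_1, a ratio of 8.25 (7.59 to 8.98). At 1000 UMIs per cell, 67.3% of CD8_T_2 cells had Ccl5, against 30.6% of CD8_T_1 cells and 0.422% of tumour cells. Ccl4 was at 1350 CPM in CD8_T_2 and 592 CPM in CD8_T_1 (ratio 2.27), and Ccl3 at 615 CPM in CD8_T_2 and 305 CPM in CD8_T_1 (ratio 2.02). Both encode inflammatory chemokines. Ifng, the interferon gamma gene, was at 298 CPM in CD8_T_2 and 302 CPM in CD8_T_1, a ratio of 0.987 (0.798 to 1.21). Xcl1, a chemokine for cross-presenting dendritic cells, was at 222 CPM in CD8_T_2 and 406 CPM in CD8_T_1 (ratio 0.546, 0.431 to 0.685), and 88.5% of its CD8_T_2 UMIs came from 10 cells. Of 13 effector cytokine and chemokine genes, 6 were compared, 3 of them higher and 0 lower.

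Most genes of the killing machinery stayed within the limits against CD8_T_1. Of 15 cytotoxic genes, 10 were compared, 2 of them were higher and 8 passed no limit, with a median log2 ratio of 0.68. Gzma, a granzyme, was at 408 CPM in CD8_T_2 and 132 CPM in CD8_T_1, a ratio of 3.08 (2.49 to 3.81). It was read in 11.8% of CD8_T_2 cells and 11.5% of CD8_T_1 cells, which were deeper, and in 9.88% (5.56 to 16.9) and 5.51% (2.70 to 9.35) of them at 1000 UMIs, against 0.0355% of tumour cells. In CD8_T_2, 93.8% of its UMIs came from 10 cells, so the interval of its ratio, which leaves out the spread between cells, is too narrow. Ctsw, a cathepsin of killer cells, was at 355 CPM in CD8_T_2 and 162 CPM in CD8_T_1 (ratio 2.19). Prf1, perforin, was at 401 CPM in CD8_T_2 and 241 CPM in CD8_T_1, a ratio of 1.66 (1.37 to 2.01). Gzmb, granzyme B, was at 390 CPM in CD8_T_2 and 245 CPM in CD8_T_1, a ratio of 1.59 (1.31 to 1.93). Of the NK receptors, 5 of 14 were compared. Klrd1 was higher, at 487 CPM in CD8_T_2 and 181 CPM in CD8_T_1 (ratio 2.69, 2.22 to 3.25), and its partner Klrc1, which encodes NKG2A, had a ratio of 1.82. Hcst, the DAP10 adaptor that signals for NKG2D, was at 421 CPM in CD8_T_2 and 124 CPM in CD8_T_1 (ratio 3.40, 2.74 to 4.22), while Klrk1, NKG2D itself, had a ratio of 1.24 (0.966 to 1.58).

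Inhibitory receptors did not move as a block against CD8_T_1. Lag3, which binds MHC class II, was at 286 CPM in CD8_T_2 and 105 CPM in CD8_T_1, a ratio of 2.72 (2.12 to 3.49). Pdcd1, which encodes PD-1, had a ratio of 1.06 (0.838 to 1.32), and Havcr2, TIM-3, was at 112 CPM in CD8_T_2 and 75.6 CPM in CD8_T_1, a ratio of 1.48 (1.02 to 2.12). Tox, a transcription factor of exhausted T cells, had a ratio of 1.67 (1.30 to 2.14). Of 16 checkpoint and exhaustion genes, 9 were compared and 1 was higher, with a median log2 ratio of 0.43, which became -0.01 with each cell weighted alike. Any of Pdcd1, Lag3 and Havcr2 was seen at 1000 UMIs in 47.9% of CD8_T_2 cells, 35.9% of CD8_T_1 cells and 0.104% of tumour cells. Without thinning the shares were 81.9% in CD8_T_2 and 81.2% in CD8_T_1.

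Of the trafficking receptors, 2 of 9 compared were higher than in CD8_T_1 and 0 lower, and of the costimulatory receptors 1 of 9 was higher and 1 lower. Cxcr6, the receptor for Cxcl16 and a marker of T cells that stay in tissue, was at 316 CPM in CD8_T_2 and 112 CPM in CD8_T_1, a ratio of 2.83 (2.23 to 3.59). Ccr2, a receptor for monocyte-attracting chemokines, had a ratio of 2.13, and the other 7 stayed within the limits. Tnfrsf18, the costimulatory receptor GITR, had a ratio of 2.08, and Slamf1, a receptor that binds its own kind on other lymphocytes, a ratio of 0.424, the only members of the costimulatory list past a limit. With each cell weighted alike, 0 of that list were. Gimap3 (2.72) and Gimap5 (2.11), GTPases tied to lymphocyte survival, were higher among 9 compared MS4A and GIMAP genes. Wls, which carries Wnt proteins to the cell surface, was at 86.7 CPM in CD8_T_2 and 19.4 CPM in CD8_T_1 (ratio 4.47, 2.64 to 7.61). Ifi27l2a, an interferon-induced gene, was at 515 CPM in CD8_T_2 and 186 CPM in CD8_T_1 (ratio 2.77), and Ypel3 had a ratio of 3.81. Among T cell receptor complex genes 15 of 15 were compared and none passed a limit, at a median log2 ratio of 0.44. The 12 MHC class I presentation genes and the 11 compared glycolysis genes held none past a limit either.

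Against CD4_T, Cd8a, Cd8b1, Ccl5, Prf1 and Gzmb were higher in CD8_T_2, and Cd4, Lgals7, Penk and Ccl1 were lower. The CD4_T side rests on 47 cells with 161842 UMIs. Of 2573 genes compared, 121 were higher (4.70%) and 175 lower (6.80%). Cd8a was at 505 CPM in CD8_T_2 and 12.4 CPM in CD4_T, a ratio of 40.9 (11.2 to 340) that rests on 2 UMIs in CD4_T. Cd4 was at 12.8 CPM in CD8_T_2 and 482 CPM in CD4_T, a ratio of 0.0265 (0.00836 to 0.0644). Ccl5 had a ratio of 15.7 (11.7 to 21.5), Prf1 of 10.8 (4.85 to 29.9) and Gzmb of 6.32 (3.34 to 13.4). Gzma had 0 UMIs in CD4_T, so it was at least 22.0-fold higher in CD8_T_2, with the floor of 3 counts over the CD4_T cells. Of 4 NK receptors compared of 14, 3 were higher, among them Klrk1 at 230 CPM in CD8_T_2 and 37.1 CPM in CD4_T.

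The genes lower than in CD4_T were led by Lgals7, galectin-7, at 5.10 CPM in CD8_T_2 and 797 CPM in CD4_T, and by Penk, the enkephalin precursor, at 10.2 CPM in CD8_T_2 and 748 CPM in CD4_T. Tnfsf8, the CD30 ligand, had 0 UMIs in CD8_T_2 and 266 CPM in CD4_T, at least 34.7-fold lower. Ccl1, a chemokine for the receptor Ccr8, was at 130 CPM in CD8_T_2 and 3410 CPM in CD4_T, a ratio of 0.0381 (0.0281 to 0.0509), with 51 UMIs in 12 CD8_T_2 cells. How the UMIs of Lgals7, Penk, Tnfsf8 and Ccl1 spread over the CD4_T cells is not given here. Of 11 CD4 and regulatory T genes, 8 were compared and 6 were lower, among them Tnfrsf4, the OX40 receptor (0.329), Icos (0.283) and the cytokine receptor chains Il2ra (0.389) and Il7r (0.138). Ctla4 had a ratio of 1.22 (0.712 to 2.17). Ifng was at 298 CPM in CD8_T_2, in 52 of its cells, and 779 CPM in CD4_T (ratio 0.383, 0.296 to 0.497). Of 8 effector cytokine and chemokine genes compared of 13, 2 were higher and 2 lower. Pdcd1 (1.20, 0.807 to 1.83) and Havcr2 (1.82, 0.901 to 4.05) had intervals that held 1. DNA replication genes were higher in CD8_T_2 than in CD4_T for 8 of 11 compared and lower for 0.

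Against CD3_T, CD8_T_2 was higher in inhibitory receptors and lower in several genes of NK cells and in genes of resting T cells. Of 2526 genes compared, 193 were higher (7.64%) and 156 lower (6.18%). Lag3 was at 286 CPM in CD8_T_2 and 32.8 CPM in CD3_T, a ratio of 8.71 (4.09 to 22.2). Havcr2 had a ratio of 7.99 (2.56 to 40.2), on 3 UMIs in CD3_T, Pdcd1 of 4.90 (2.62 to 10.1) and Tox of 2.20 (1.38 to 3.64). Of 16 checkpoint and exhaustion genes, 9 were compared, with 7 higher, 0 lower and a median log2 ratio of 1.12. Ifng was at 298 CPM in CD8_T_2 and 56.2 CPM in CD3_T, a ratio of 5.31 (2.93 to 10.6). The ratio for Ccl5 was 0.504 (0.472 to 0.538), and for Gzma, at 408 CPM in CD8_T_2 and 3720 CPM in CD3_T, 0.110 (0.0921 to 0.130). Prf1 (1.03, 0.784 to 1.36) and Gzmb (0.980, 0.747 to 1.29) had intervals that held 1.

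Of the genes of naive and memory T cells, 7 of 14 were compared with CD3_T and 6 were lower in CD8_T_2, with a median log2 ratio of -3.48. Tcf7, a transcription factor of cells that can renew, was at 5.10 CPM in CD8_T_2, on 2 UMIs, and 122 CPM in CD3_T. Klf2, which controls exit from tissue, was at 166 CPM in CD8_T_2 and 623 CPM in CD3_T. The NK genes Ncr1 and Klra8 had 0 UMIs in CD8_T_2, at least 20.2-fold and 16.5-fold lower than in CD3_T. Tyrobp, the DAP12 adaptor of NK and myeloid cells, was at 71.4 CPM in CD8_T_2 and 862 CPM in CD3_T. Of 14 NK receptors, 9 were compared, 4 of them lower and 0 higher, with a median log2 ratio of -0.58. Klrd1 ran the other way, at 487 CPM in CD8_T_2 and 323 CPM in CD3_T. The median cell had 11.3 NK receptor UMIs per 10000 in CD8_T_2 and 7.61 in CD3_T. Of 9 NK markers, 8 were compared and 6 were lower. In CD3_T these markers had UMIs in 59 of 138 cells. CD3_T cells are the shallowest of the T cells, and among cells with at least 2000 UMIs 2 genes of the naive and memory list were lower and 0 higher.

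Against all other immune clusters together, T cell receptor and cytotoxic genes were higher in CD8_T_2. Of 2681 genes compared, 168 were higher (6.27%) and 420 lower (15.7%). T cell receptor complex genes were higher for 14 of 14 compared, with a median log2 ratio of 2.03, and cytotoxic genes for 8 of 9, with a median of 2.36. The exception was Srgn, the granule proteoglycan serglycin, at 610 CPM in CD8_T_2 and 1490 CPM in the other clusters. Klrd1 had a ratio of 7.16 (6.04 to 8.45), Cxcr6 of 6.90 (5.58 to 8.48), Nkg7, a cytotoxic granule protein, of 5.29 (4.90 to 5.71), Lag3 of 4.07 (3.29 to 4.99) and Pdcd1 of 3.42 (2.73 to 4.23). Costimulatory receptors were higher for 7 of 8 compared and lower for 0.

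Among the genes lower than in the other immune clusters, those with the lowest ratios included Cxcl2, H2-Aa and Lyz2. Cxcl2, a chemokine for neutrophils, was at 25.5 CPM in CD8_T_2 and 2170 CPM in the others, a ratio of 0.0117 (0.00563 to 0.0216). H2-Aa, an MHC class II chain, was at 45.9 CPM in CD8_T_2 and 2610 CPM in the others, and Lyz2, lysozyme, at 48.5 CPM in CD8_T_2 and 2120 CPM in the others. Of 18 type I interferon-stimulated genes, 9 were compared and 6 were lower, among them Isg15 (0.0512, 0.0245 to 0.0943). Of 14 interferon gamma-induced genes, 13 were compared and 9 were lower, with Cxcl9 at 15.3 CPM in CD8_T_2 and 788 CPM in the others. A list of immediate early and dissociation genes joins genes that cells switch on within minutes of a stimulus with heat shock genes such as Hspa1a. Of its 19 genes, 18 were compared and 12 were lower, with Fos at 125 CPM in CD8_T_2 and 696 CPM in the others. Mitosis genes were lower for 6 of 12 compared and higher for 0, at a median log2 ratio of -0.85, but with each cell weighted alike 2 were higher and 2 lower. The median over all compared genes was 0.08 and became 0.22 when totals left out ribosomal and mitochondrial genes.

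**Figure D4:**
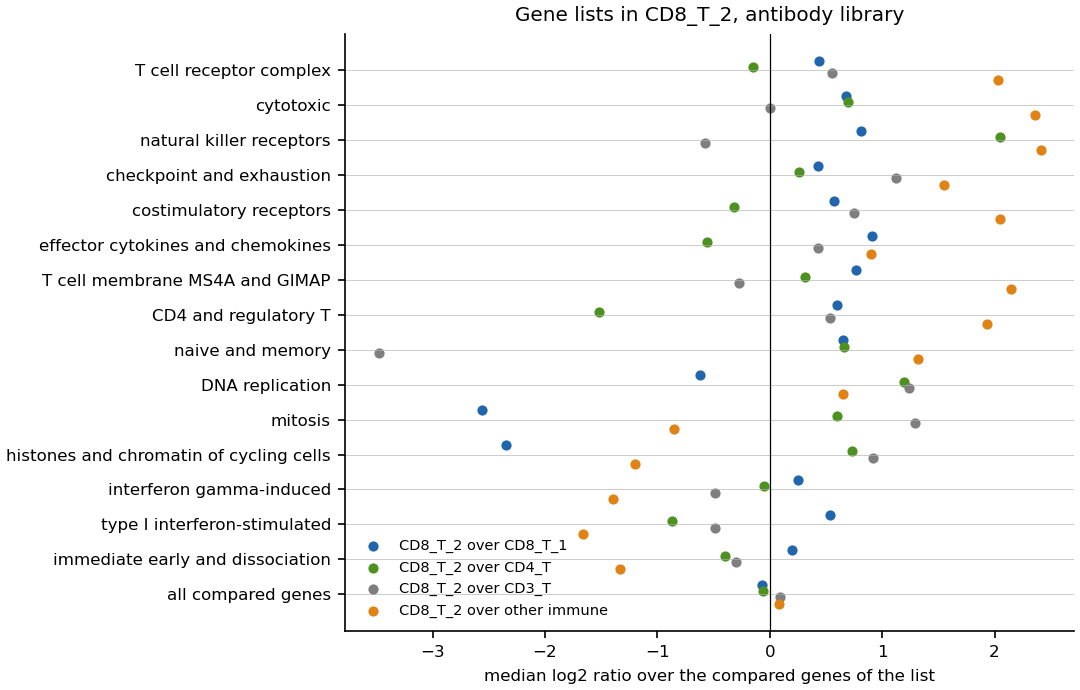
Median log2 ratio of CD8_T_2 over CD8_T_1, CD4_T, CD3_T and all other immune clusters, for the compared genes of 15 gene lists and for all compared genes, in the antibody library; lists with fewer than 3 compared genes in a comparison are not drawn there. The mitosis list is at -2.56 against CD8_T_1, and the naive and memory list at -3.48 and the checkpoint list at 1.12 against CD3_T.

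The cells of CD8_T_2 were alike in their T cell genes and unlike in a few effector genes. The 10 cells with most UMIs of Cd8b1 held 21.1% of its UMIs, and for Cd3d the share was 21.4%. For Ccl5 it was 47.6%, with a highest cell at 163 of 1751 UMIs. For Gzma the 160 UMIs came from 15 cells. Of these 15, 14 had Cd3d, 14 Ccl5, 13 Gzmb, 10 Cd8b1 and 1 the NK gene Klrb1c. In the Gzma cells Ccl5 was at 11200 CPM and Gzmb at 610 CPM, against 3650 CPM and 363 CPM in the other 112 cells. Lag3 was at 164 CPM in the Gzma cells, on 7 UMIs, and at 301 CPM in the other cells. The median depth was 2534 UMIs in the Gzma cells and 2613.5 UMIs in the others. Which genes go with Gzma was examined after its values were seen.

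Several pairs of inhibitory receptors and killing genes were read in the same cells about as often as their separate counts give, but Gzma and Gzmb more often. Pdcd1 had a UMI in 63 cells and Lag3 in 69, with both in 37 of the 127, and the product of their shares gives 34.2. Pdcd1 and Gzmb were both read in 32 cells, where the product gives 29.3, and Gzmb and Prf1 in 32, where it gives 28.3. Gzma and Gzmb were both read in 13 cells, where the product gives 6.97. Mki67 had a UMI in 31 cells, of which 20 also had Gzmb, where the product gives 14.4. Klrd1 and Klrc1, the chains of the CD94 and NKG2A receptor, were both read in 31 cells, where it gives 32.9. No test was made of these counts. At these depths a gene without a UMI in a cell may still be expressed there.

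A pair of CD8_T_2 cells carried most of the neutrophil transcripts. They held 412 and 169 of the cluster's 596 neutrophil marker UMIs at depths of 11495 and 4454 UMIs, together with 3 and 4 UMIs of Cd8b1. S100a9, a calcium-binding protein of neutrophils, was at 832 CPM in CD8_T_2 and 337 CPM in CD8_T_1 (ratio 2.47), and Il1b, the interleukin-1 beta gene, at 179 CPM in CD8_T_2 and 58.9 CPM in CD8_T_1 (ratio 3.03). Without T cells of at least 10 neutrophil UMIs, of which CD8_T_2 had 2, CD8_T_1 had 4, and CD4_T and CD3_T had 1 each, the Il1b ratio was 0.305. Against CD4_T the S100a9 ratio was 6.12 with all cells and 0.529 without them. Of the doublet predictions 0 fell in CD8_T_2, but the caller marked only 3 of 5482 cells, so this count says little about doublets in the cluster. Why so few were marked was not tested.

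Between treatments, CD8_T_2 was a smaller part of the immune cells with the antibody than with IgG. It made up 6.28% (5.26 to 7.43) of 2022 immune cells in the antibody library and 8.41% (6.87 to 10.2) of 1141 in the IgG library, a ratio of 0.747 (0.568 to 0.984). T cells were counted as CD8_T_2, CD8_T_1, CD4_T and CD3_T together. Of these, CD8_T_2 made up 24.4% (20.8 to 28.4) with the antibody and 36.4% (30.6 to 42.5) with IgG, a ratio of 0.672 (0.511 to 0.885). This ratio depends on counting CD3_T, a cluster that also carries NK genes, with 138 cells with the antibody and 44 with IgG. Of the CD8 clusters, CD8_T_2 made up 37.9% (32.7 to 43.3) with the antibody and 49.5% (42.2 to 56.7) with IgG, a ratio of 0.766 (0.583 to 1.01). CD8_T_1 had 208 cells with the antibody and 98 with IgG. The ratio intervals treat the cell counts as rates, not as parts of a total. They are too wide where the share is large, so the upper bound of 1.01 does not show that the CD8 shares were alike. Of all cells the order was the other way, at 2.32% (1.93 to 2.75) with the antibody and 1.67% (1.35 to 2.03) with IgG, a ratio of 1.39 (1.06 to 1.83), and this denominator depends on the loading of enriched cells. The spread between mice is not known, so whether these shares differ by more than mice do was not tested.

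Of the 105 genes complete in both libraries, 27 could be compared in CD8_T_2, and most were close to each other. Of these, 2 were higher past 2-fold with the antibody (7.41%) and 0 lower (0%), and the median ratio of antibody over IgG was 0.983 (lowest 0.632, highest 2.63). The 2 were Atp6v1h, a subunit of the proton pump of lysosomes, at 2.05 (0.753 to 6.46) and Zfp451, a zinc finger protein, at 2.63 (0.920 to 9.17), with intervals that held 1. The only interval without 1 was that of Rpl7, a ribosomal protein, at 2140 CPM with the antibody and 2380 CPM with IgG (0.898, 0.814 to 0.992). Zap70, the kinase that carries the T cell receptor signal, was at 133 CPM with the antibody and 174 CPM with IgG (0.763, 0.513 to 1.13). Mcm3, a helicase subunit of DNA replication, was at 166 CPM with the antibody and 155 CPM with IgG (1.07, 0.727 to 1.58). Ptpn18, a tyrosine phosphatase, was at 717 CPM with the antibody and 652 CPM with IgG (1.10, 0.916 to 1.32).

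The same genes gave a partial view of the CD8 clusters under IgG. For 17 of the 27, the ratio of CD8_T_2 over CD8_T_1 lay on the same side of 1 in both libraries. Most of the intervals held 1, so this count says little about whether the contrast recurs under IgG. Rpl7, for example, had a ratio of 1.01 (0.933 to 1.09) with the antibody and 1.01 (0.929 to 1.10) with IgG. For Ptpn18 the ratio was 1.91 (1.65 to 2.21) with the antibody and 1.41 (1.18 to 1.68) with IgG. For Mcm3 it was 0.770 (0.580 to 1.01) with the antibody and 1.03 (0.722 to 1.46) with IgG, and for Zap70 0.877 with the antibody and 1.29 (0.909 to 1.81) with IgG. CD8_T_2 ranked the third of 30 clusters for Zap70 with the antibody and the second with IgG, which is the check of its T cell name that the IgG genes allow. Under IgG, none of the mitosis list and only Mcm3 of the replication list was among the complete genes. Prim2, a DNA primase subunit on neither list that was looked at after its values were known, was too low to be compared between libraries. Its ratio of CD8_T_2 over CD8_T_1 was 0.397 (0.123 to 0.993) with the antibody, on 5 UMIs in CD8_T_2, and 0.386 (0.0724 to 1.33) with IgG, on 3.

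**Figure D5:**
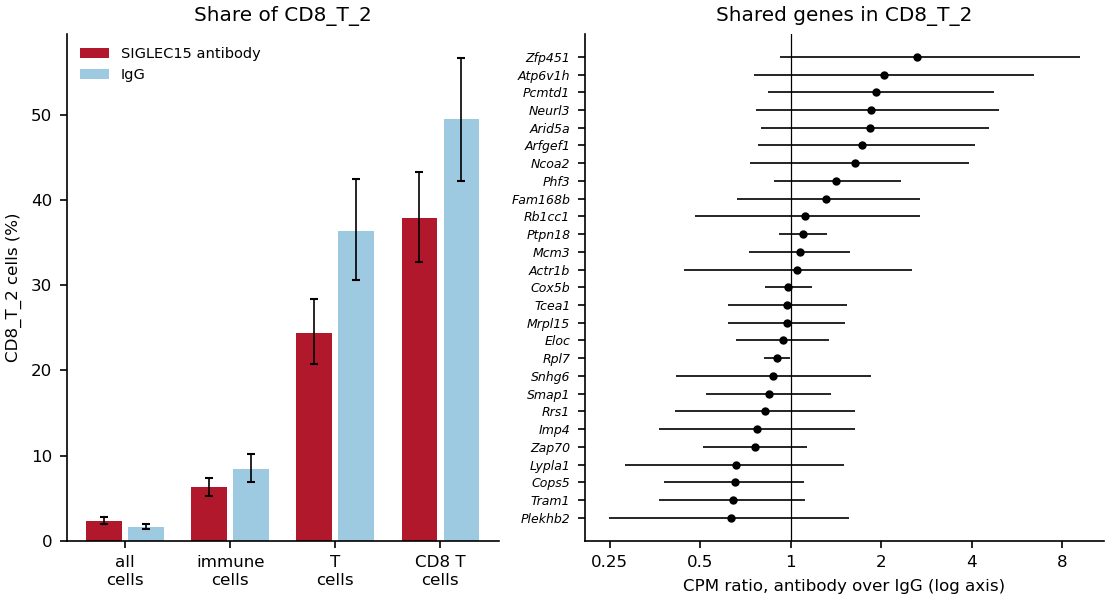
Left, share of CD8_T_2 in percent among all cells, immune cells, T cells and CD8 T cells, antibody bar left of IgG bar, with exact 95% Clopper-Pearson intervals; right, ratio of antibody over IgG in CD8_T_2 for the 27 shared genes, with exact 95% intervals. The share of T cells is 24.4% with the antibody and 36.4% with IgG, and Rpl7, at 0.898, is the only gene whose interval does not hold 1.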

How the data were processed

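Single-cell transcripts were counted in digested Hep1-6 grafts with a 10x Genomics single cell kit, in 1 antibody and 1 IgG library. The submitters' processing notes name Cell Ranger 2.1.1. How cells were filtered, clustered and cleared of doublets, and against which genome build, is not given in the sources used here. The authors deposited natural log values: each UMI count was divided by the cell's total, multiplied by 10000 and raised by 1 before the log. This was tested on the values, and UMIs were recovered as whole numbers within a tolerance of 0.001. The authors' annotation names 30 clusters. Of the IgG matrix, 105 genes were complete and 1 incomplete gene was not used. Depth recovered from these 105 genes alone was right in 5440 antibody cells, wrong in 8 and missing in 34. It gave a depth for 96 of 96 IgG CD8_T_2 cells. The antibody library held 74168827 UMIs and the IgG library 85804877.

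UMIs were summed per cluster and scaled to CPM, with ratios in exact conditional 95% intervals and shares in exact Clopper-Pearson intervals. Ratios of shares used the same conditional interval for rates, which is too wide for large shares. No p-value was computed, since each group has 1 library and cells are not replicates. Log2 ratios had 0.5 added to each count, and a group at 0 was given a floor of 3 counts over the group. Intervals and floors cover counting error only. Thinned shares are expected values at 1000 UMIs per cell. No CD8_T_2 antibody cell was left out of thinning, and 2 CD8_T_1 and 24 CD3_T cells were. Immune clusters are those named T, B, DC, MDSC or Macrophage. The rule for naming took, per comparison and direction, up to 10 genes past 2-fold with the interval bound nearest to 1 lying farthest from it. Ribosomal, mitochondrial, haemoglobin and receptor segment genes and unnamed models were left out of that naming. Genes of 23 lists and 14 marker lists could be named as well. The cluster, the lists and the rules were chosen with earlier results of these data known. Alternatives were other depth minimums, weights, scalings, filters, fold limits and thinning depths. Leaving out neutrophil-marker cells or Gzma cells, and a total without cell cycle genes, were added after seeing the data. Promoters came from RefSeq on GRCm38.p6, matched by symbol. The ratio intervals, the 2-fold limit and the recovery of UMIs were tested on simulated counts, and the other steps were not. The simulated counts had no added spread between cells, so they cannot show how the intervals behave with such spread. Python 3.11.15, numpy 2.4.6, pandas 2.3.3, scipy 1.17.1, scanpy 1.11.5 (scrublet) and matplotlib 3.10.9 were used. Some items are not reported here.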

Additional observations from a re-analysis of the deposited data

How the results depend on the processing

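The share ratios between libraries stayed on their side of 1 and moved little under a minimum of 1000 or 2000 UMIs per cell. The ratio for immune cells did so without MDSC_5, Macrophage_4 and CD3_T as well. These clusters were left out of the immune cells only, so the T cell ratio without CD3_T was not computed. Counts of genes past the fold moved by construction with the filter and the limit. A filter of 20 CPM and 10 UMIs gave 199 higher and 403 lower against CD8_T_1, 492 and 519 against CD4_T, 494 and 578 against CD3_T, and 383 and 938 against other immune clusters. A 1.5-fold limit gave 244 and 434, 327 and 450, and 542 and 395 in the T cell comparisons, and 442 and 593 against other immune clusters. A 3-fold limit gave 8 and 68, 42 and 54, and 35 and 41, and 72 and 282 against other immune clusters. Totals without ribosomal and mitochondrial genes gave 106 higher and 235 lower against CD8_T_1, 223 and 205 against CD4_T, 316 and 228 against CD3_T, and 314 and 488 against other immune clusters; the cause was not tested. With that total, the higher genes were 52.1% of those past the fold against CD4_T (40.9% with all genes) and 39.2% against other immune clusters (28.6%). With the median ratio set to 1 they were 45.1% against CD3_T (55.3%), at 158 higher and 192 lower. Each cell weighted alike gave 278 higher and 496 lower against other immune clusters, and 5 shared genes higher between libraries, while a minimum of 2000 UMIs gave 0 of these. Without T cells of at least 10 neutrophil UMIs, an alternative chosen after seeing the data, 2 ratios changed side: Il1b against CD8_T_1 was 0.305 and S100a9 against CD4_T was 0.529. Of 610 named gene ratios under alternatives, which repeat 78 distinct results, 572 kept within the counting interval. Thinned shares move with the depth by construction, and 41 of 54 did. Leaving out predicted doublets was not run, since 3 of 5482 cells (0.0547%) were marked. No paired analysis was possible because each group has 1 library. Depth limits genes under about 50 CPM in CD8_T_2, and the 127 and 96 cells limit what the shares can show.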
